A study of Mus musculus with 6 samples.

Results

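The fibroblast growth factor (FGF) genes examined here are 10 mouse genes: the ligands Fgf1, Fgf2, Fgf7, Fgf10 and Fgf18, the FGF carrier Fgfbp1, the receptors Fgfr1, Fgfr2 and Fgfr3, and the receptor-like gene Fgfrl1. They were taken by symbol from the 55385 mouse genes of the count table, and all 10 passed the filter on low counts, as did 18504 genes in all. The samples were 6 bulk RNA-seq libraries of PDVC57 cells, a mouse line from a squamous cell carcinoma, 3 labelled Sox2 KO and 3 labelled Sox2 overexpression. The series' design text describes Sox2-low and Sox2-high carcinoma cells taken from grafted tumours and asks which mechanisms Sox2 turns on that act on neutrophils. How the knockout was made, what drives the added Sox2, how many clones were used, and the host mice are not given in the sources used here. Nothing says that the replicates came from separate tumours, so p-values measure only the spread between these libraries.

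FGFs are secreted proteins that bind heparan sulfate at the cell surface and activate receptor tyrosine kinases of the FGFR family, which signal through the adaptor Frs2 to the Ras and MAP kinase pathway. In skin, fibroblasts make Fgf7 and Fgf10, and keratinocytes receive them through an epithelial splice form of Fgfr2. Sprouty and Spred proteins, the phosphatase Dusp6 and the Etv transcription factors are well-known outputs of this pathway, and several of them restrain it.

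Libraries held between 31247976 and 38543221 counts over mouse genes, and a count of 0 allows up to 3 counts, which was at most 0.101 CPM in any library, CPM being the count scaled to a common library size with TMM factors. This limit covers counting error only. Sox2 itself had 25 to 49 counts in the knockout libraries and 2566 to 4095 in the overexpression libraries, so the groups did not overlap. Epithelial markers were present in every library, with a summed level of 8150 to 12400 CPM over 30 genes with knockout and 20300 to 25900 CPM with overexpression. The 10 fibroblast markers summed to 53200 to 81000 CPM with knockout and to 246 to 388 CPM with overexpression, with no overlap between the groups. The 6 endothelial markers summed to 26.9 to 114 CPM with knockout and 12.3 to 19.5 CPM with overexpression, and the 6 leukocyte markers to 20.3 to 108 CPM and 6.96 to 17.2 CPM, with the highest sum of both in knockout replicate 3. With overexpression these sums were mostly Tek (9.336 to 16.91 CPM) and Csf1r (6.02 to 16.14 CPM), and both genes overlapped between the groups. Csf1r averaged 6.42 CPM with knockout and 11.65 CPM with overexpression. Past the threshold, 4 of 5 tested endothelial and 3 of 4 tested leukocyte markers fell (edgeR). The 5 mural markers summed to 217 to 319 CPM and 27.8 to 56.5 CPM, the 4 adipocyte markers to 3.17 to 6.99 CPM and 0.305 to 0.575 CPM, and the 4 Schwann cell markers to 5.25 to 9.66 CPM and 3.08 to 3.45 CPM. The adipocyte sum with knockout was mostly Fabp4 (2.843 to 5.81 CPM), and Adipoq and Cidec had 0 counts in those libraries.

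Among the 10 FGF genes, 4 ligands were lower with Sox2 overexpression (Fgf2, Fgf7, Fgf10 and Fgf18) and 2 genes were higher (Fgfbp1 and Fgfrl1). These 6 passed an adjusted p of 0.05 in the edgeR quasi-likelihood test, and the same 6 had groups that did not overlap. Over all tested genes, 31.6% passed in either direction, 18.0% as lower and 13.6% as higher, and 50.9% had groups that did not overlap. The ligand Fgf1 and the receptors Fgfr1, Fgfr2 and Fgfr3 did not pass. Fgf7 and Fgf10 did not reach the filter's minimum of 10 counts in every overexpression library. They passed the count filter only through the knockout libraries, so they could only be called lower. The median log2 fold change of the 10 genes, overexpression over knockout, was -0.67, beside -0.02 for all tested genes. Scaling each library to the epithelial markers instead moved the median of all genes to -1.19. Under that scaling Fgfbp1 was the 1 member past the threshold as higher, 8 were lower, and Fgfrl1 was level. Of all tested genes, 76.3% passed as lower there and 1.84% as higher.

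**Figure D1:**
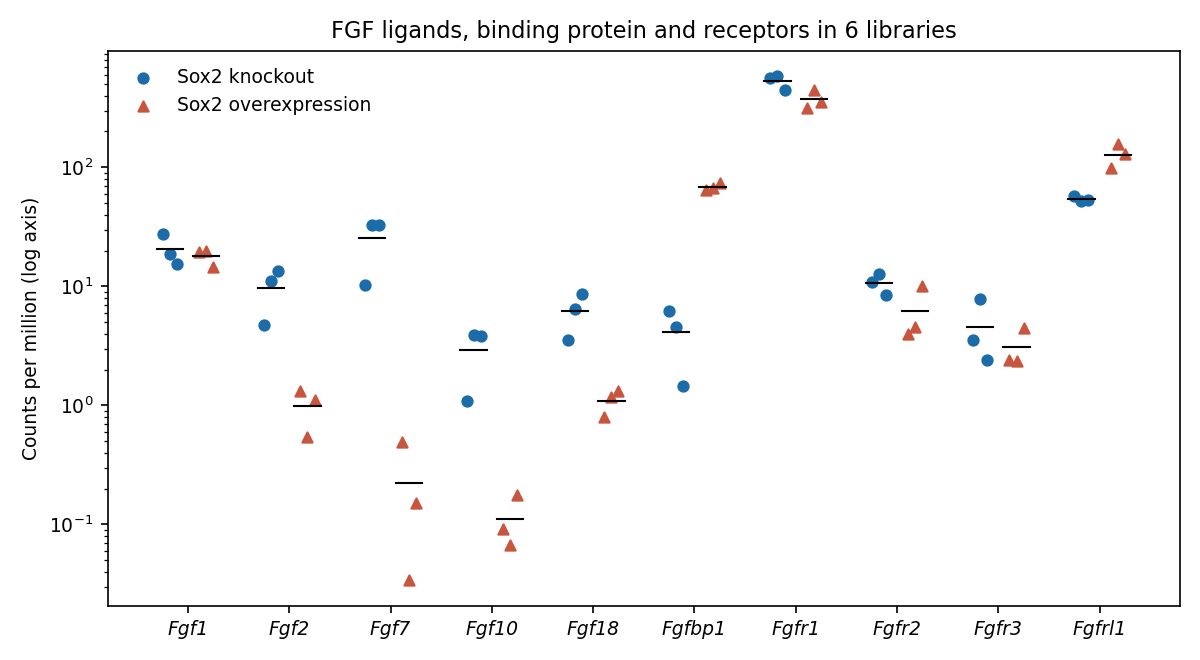
Level of each of the 10 FGF genes in CPM (log axis) in the 3 Sox2 knockout libraries (circles) and the 3 Sox2 overexpression libraries (triangles), with black bars for group means. The groups are apart for Fgf2, Fgf7, Fgf10, Fgf18, Fgfbp1 and Fgfrl1, and overlap for Fgf1, Fgfr1, Fgfr2 and Fgfr3.

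The order of levels was compared per kb of merged exon (CPM per kb), since longer genes collect more counts. With knockout Fgfr1 was highest, at 53.7 ± 7.55 CPM per kb (SD, n = 3), followed by Fgfrl1 at 19.5 ± 1.13, and both stood clear of the genes below them. Fgf7 came next at 7.78 ± 4.02 CPM per kb, then Fgf18 at 5.20 ± 2.13 and Fgf1 at 3.76 ± 1.14, and these 3 ligands overlapped as neighbours. Fgfbp1 (1.81 ± 1.08), Fgf2 (1.44 ± 0.661), Fgfr2 (1.03 ± 0.204), Fgfr3 (0.638 ± 0.399) and Fgf10 (0.637 ± 0.347) followed on the same scale. Fgf1 and Fgfbp1 were narrowly apart, and each later gene overlapped its neighbour.

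With overexpression the order was different. Fgfrl1 was at 46.04 ± 10.3 CPM per kb (SD, n = 3), Fgfr1 at 37.8 ± 6.98 and Fgfbp1 at 30.3 ± 2.19, and the ranges of neighbours overlapped. Fgf1 was the highest ligand at 3.28 ± 0.530 CPM per kb, apart from Fgfbp1 above it and from Fgf18 below it. Fgf18 (0.925 ± 0.229), Fgfr2 (0.600 ± 0.328) and Fgfr3 (0.430 ± 0.166) overlapped in turn on this scale. Fgf2 (0.146 ± 0.0590) lay below all of them, and Fgf7 (0.0692 ± 0.0726), which overlapped Fgf2, and Fgf10 (0.0244 ± 0.0125), which overlapped Fgf7, were lowest.

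The stretch before the transcription start is shown for the ligand with the largest fall and for both genes that rose, since these members moved in opposite directions. Each is the 250 bases upstream of the RefSeq start on GRCm38.p6, read 5′ to 3′ on the strand of the gene. Capitals mark a match to the SOX core letters ACAAAG or ACAATG or to the AP-1 letters TGANTCA, searched on both strands. The windows are chr2:126034408-126034657 (plus strand) for Fgf7, chr5:43981800-43982049 (minus strand) for Fgfbp1 and chr5:108693979-108694228 (plus strand) for Fgfrl1.
Fgf7: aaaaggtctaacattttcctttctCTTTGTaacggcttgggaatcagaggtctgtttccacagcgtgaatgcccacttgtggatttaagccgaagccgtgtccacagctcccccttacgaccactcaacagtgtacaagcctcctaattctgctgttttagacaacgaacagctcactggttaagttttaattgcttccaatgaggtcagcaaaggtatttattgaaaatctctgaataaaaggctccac
Fgfbp1: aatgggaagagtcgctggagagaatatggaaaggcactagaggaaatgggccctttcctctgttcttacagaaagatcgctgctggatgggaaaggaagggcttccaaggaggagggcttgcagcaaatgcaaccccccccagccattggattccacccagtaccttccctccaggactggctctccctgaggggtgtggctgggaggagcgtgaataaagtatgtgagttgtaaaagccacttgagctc
Fgfrl1: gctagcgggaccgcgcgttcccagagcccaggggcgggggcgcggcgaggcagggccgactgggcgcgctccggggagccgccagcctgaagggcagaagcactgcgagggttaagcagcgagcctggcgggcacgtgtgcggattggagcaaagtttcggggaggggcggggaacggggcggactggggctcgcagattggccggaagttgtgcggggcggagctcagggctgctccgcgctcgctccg
The Fgf7 window held 1 match, ACAAAG on the opposite strand, which begins 226 bases before the start. The Fgfbp1 and Fgfrl1 windows held no match to these letters. Nor did the windows of Fgf2, Fgf10 and Fgf18, the other ligands that fell, or those of Fgfr2 and Fgfr3. The match therefore does not separate falling from rising members. Among 32851 promoter windows of this length, 16.5% held ACAAAG, 25.2% held ACAAAG or ACAATG, and 6.75% held TGANTCA. The Fgfrl1 window had 30 CpG dinucleotides, more than 94.1% of those windows, whereas the Fgfbp1 window had 3 and the Fgf7 window 6, where the median was 6. The windows depend on the annotated start: GENCODE M21 begins Fgfbp1 at base 43981779, downstream of the RefSeq start, and Fgfrl1 at base 108692382, upstream of it.

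Fgf7, also known as keratinocyte growth factor, is a ligand made by mesenchyme that acts on epithelium. Knockout libraries 1, 2 and 3 held 348, 999 and 1188 Fgf7 counts, whereas the overexpression libraries, in the same order, held 16, 1 and 6. Every knockout library was above every overexpression library, and within the knockout group replicate 1 was the low one. The level fell from 25.3 ± 13.05 to 0.225 ± 0.236 CPM (SD, n = 3 each), or -6.78 on the log2 scale (SE 0.73; adjusted p = 0.000175, edgeR). The overexpression mean rested on replicate 1: without it the group stood at 0.0928 CPM, close to the limit that a count of 0 allows, and the log2 fold change was -7.91 (adjusted p = 0.00023, edgeR). Fgf7 (ENSMUSG00000027208) lies on chromosome 2, bases 126034658 to 126091185, plus strand.

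Fgf10, a close relative of Fgf7 that binds the same epithelial receptor form, had 37, 117 and 140 counts with knockout and 3, 2 and 7 with overexpression. The groups did not overlap, and knockout replicate 1 was again lowest in its group. Its level dropped from 2.93 ± 1.599 CPM to 0.112 ± 0.0575 CPM (SD, n = 3 per group). On the log2 scale the change was -4.62 (SE 0.65, adjusted p = 0.000832, edgeR), from an overexpression level near the counting limit. Fgf10 (ENSMUSG00000021732) spans bases 118669791 to 118792115 of chromosome 13, plus strand.

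Fgf2, or basic FGF, binds most FGF receptors and is produced by many cell types. Counts were 163, 335 and 491 with knockout and 43, 16 and 44 with overexpression, again with no overlap and with replicate 1 lowest in the knockout group. The level fell from 9.77 ± 4.49 to 0.989 ± 0.400 CPM (SD, n = 3 each), or -3.29 on the log2 scale (SE 0.48, adjusted p = 0.000994, edgeR). Fgf2 (ENSMUSG00000037225; chromosome 3, bases 37348346 to 37410108, plus strand) shares 640 exon bases with Nudt6 on the other strand. Whether counting used the strand is not given in the sources used here. Nudt6 differed in the opposite direction, with 50, 75 and 88 counts with knockout and 133, 164 and 161 with overexpression (log2 fold change 1.10, adjusted p = 0.0296, edgeR). The Nudt6 call was lost in 4 of the 6 fits that left out 1 library (all except those without knockout replicate 3 or overexpression replicate 1; adjusted p from 0.038 to 0.074, edgeR), and under the epithelial scaling the log2 fold change was -0.11.

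Fgf18, a ligand known from skeletal growth and the hair cycle, had 120, 195 and 312 counts with knockout and 26, 35 and 52 with overexpression. The groups did not overlap, although the lowest knockout library was closer to the overexpression group than for Fgf7. The level fell from 6.17 ± 2.53 to 1.10 ± 0.271 CPM (SD, n = 3 each), or -2.49 on the log2 scale (SE 0.40, adjusted p = 0.00181, edgeR). Fgf18 (ENSMUSG00000057967) lies on chromosome 11, bases 33117430 to 33147400, minus strand.

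These 4 ligands were measured beside large differences in the fibroblast markers, and in bulk libraries fewer cells of a type and less RNA per cell cannot be told apart. Each of the 10 fibroblast markers fell (edgeR), by log2 values between -9.98 and -6.91. The change of Fgf7 (-6.78) was just outside that range, and those of Fgf10 (-4.62), Fgf2 (-3.29) and Fgf18 (-2.49) were well short of it. Relative to Pdgfra, a fibroblast receptor chosen as the yardstick after its values were seen, Fgf7 stood at 39.4, 128 and 146 counts per 1000 Pdgfra counts with knockout and at 400.0, 28.6 and 77.9 with overexpression. That ratio overlapped between the groups for Fgf7. For Fgf18 it was 13.6 to 38.4 with knockout and at least 650.0 with overexpression, and for Fgf2 it was 18.5, 42.9 and 60.4 with knockout and 1080.0, 457 and 571 with overexpression, so both were higher relative to Pdgfra in each overexpression library. Fgf10 stood at 4.19 to 17.2 with knockout and at 57.1 to 90.9 with overexpression, the latter from at most 7 counts of Fgf10. All overexpression ratios divide by only 40, 35 and 77 Pdgfra counts, beside 8830, 7815 and 8127 with knockout. The part of these marker levels in the fall of each ligand was not tested.

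Fgf1, or acidic FGF, binds all FGF receptors. It had 939, 561 and 567 counts with knockout and 641, 581 and 577 with overexpression. Only knockout replicate 1 was above every overexpression library. Levels were 20.5 ± 6.23 and 17.9 ± 2.90 CPM (SD, n = 3 each), and the log2 fold change of -0.20 had a 95% interval from -0.75 to 0.35 (adjusted p = 0.568, edgeR). Without knockout replicate 1 the log2 fold change was 0.084 (adjusted p = 0.815, edgeR). Scaled to the epithelial markers it was -1.33 (adjusted p = 0.000898, edgeR), close to the shift that this scaling gave the median gene.

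Fgfbp1 encodes a secreted protein that releases FGFs from heparan sulfate and presents them to receptors, and it is a gene of squamous epithelia. Fgfbp1 counts were 213, 139 and 53 with knockout (replicates 1, 2 and 3) and 2131, 1970 and 2937 in the overexpression libraries. The overexpression libraries were close to each other and all far above the knockout libraries. The level rose from 4.10 ± 2.43 to 68.7 ± 4.95 CPM (SD, n = 3 each), which is 16.8-fold, or 4.07 on the log2 scale (SE 0.45; adjusted p = 0.000203, edgeR). Epithelial markers also rose, with a median log2 fold change of 1.18 over 30 genes, 23 of them past the threshold. Their values ran from 0.15 to 4.41, so Fgfbp1 lay within their range. When libraries were scaled to those markers, Fgfbp1 was still higher, by 2.97 on the log2 scale (adjusted p = 0.000105, edgeR). The markers themselves then ran from -0.97 to 3.29, a range that again held Fgfbp1. Fgfbp1 (ENSMUSG00000048373) lies on chromosome 5, bases 43978858 to 43981779, minus strand.

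Fgfrl1 encodes a receptor-like protein that binds FGFs and heparan sulfate but lacks the tyrosine kinase of the other receptors. Counts were 1975, 1578 and 1923 with knockout and 3254, 4628 and 5075 with overexpression. No overexpression library reached down to the knockout range. The level rose from 54.3 ± 3.15 to 128 ± 28.6 CPM (SD, n = 3 each), which is 2.36-fold, or 1.24 on the log2 scale (SE 0.19; adjusted p = 0.00114, edgeR). Scaled to the epithelial markers, the log2 fold change was 0.043 (adjusted p = 0.839, edgeR), so Fgfrl1 did not differ beyond the spread relative to those markers. Fgfrl1 (ENSMUSG00000008090) spans bases 108692382 to 108706924 of chromosome 5, plus strand.

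**Figure D2:**
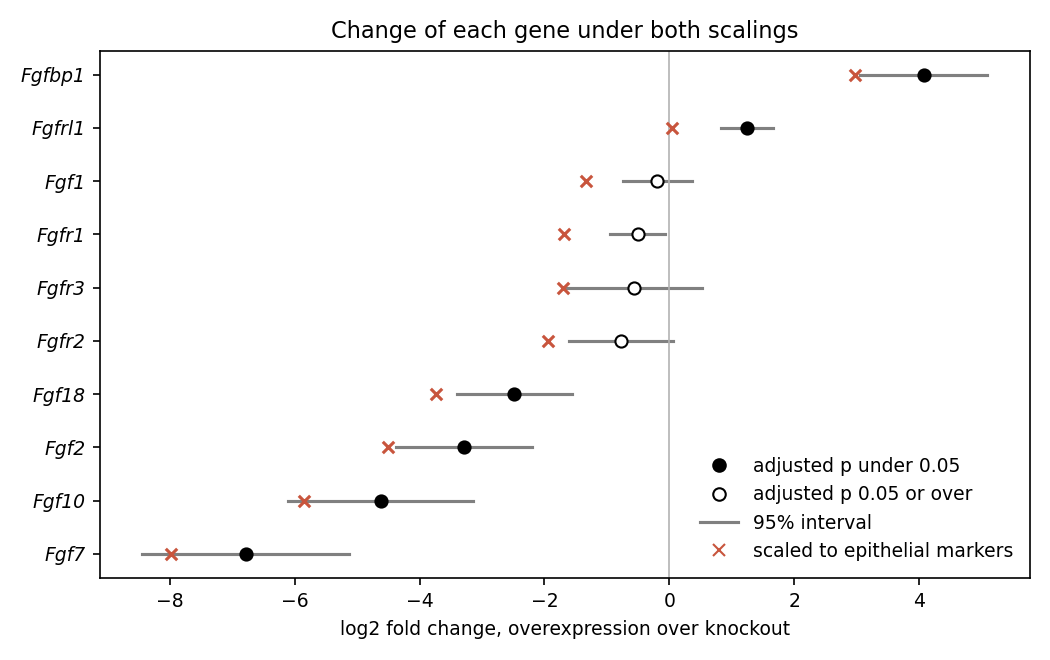
The log2 fold change of each gene, overexpression over knockout, with its 95% interval from the edgeR fit (filled circles: adjusted p under 0.05; open circles: 0.05 or over) and, as crosses, the value when libraries were scaled to the epithelial markers. Fgfbp1 stays right of 0 under both, Fgfrl1 moves from 1.24 to 0.043, and the 4 falling ligands stay left of 0.

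Fgfr1, the receptor best known from mesenchyme, was more abundant than Fgfr2, Fgfr3 or Fgfr4 in every library. It had 19130, 17694 and 16258 counts with knockout and 10402, 13311 and 13910 with overexpression. The CPM ranges just overlapped, because overexpression replicate 2 (450.3 CPM) was above knockout replicate 3 (446 CPM). Levels were 530.5 ± 74.5 and 373 ± 68.9 CPM (SD, n = 3 each), and the log2 fold change of -0.51 had a 95% interval from -0.95 to -0.07 (adjusted p = 0.0763, edgeR; unadjusted p = 0.0278). The adjusted p was 0.026 without overexpression replicate 2 and 0.0382 with upper-quartile normalization, both with edgeR, and 3.91e-05 when scaled to the epithelial markers, where the log2 fold change was -1.68. Fgfr1 (ENSMUSG00000031565; chromosome 8, bases 25513654 to 25575718, plus strand) shares 164 exon bases with Gm16159 on the other strand, which had at most 43 counts in a library.

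Fgfr2, whose epithelial splice form receives Fgf7 and Fgf10, had 370, 382 and 308 counts with knockout and 130, 134 and 399 with overexpression. Overexpression replicates 1 and 2 lay below the knockout range, and replicate 3 lay inside it. Levels were 10.6 ± 2.10 and 6.20 ± 3.39 CPM (SD, n = 3 each), and the log2 fold change of -0.78 had a 95% interval from -1.61 to 0.06 (adjusted p = 0.145, edgeR). Without overexpression replicate 3 it was -1.31 (adjusted p = 0.0159, edgeR), and scaled to the epithelial markers -1.94 (adjusted p = 0.00128, edgeR). The table gives counts per gene, so the splice forms of Fgfr2 are not analysed here. Fgfr2 (ENSMUSG00000030849; chromosome 7, minus strand) shares 314 exon bases with its neighbour Ctbp2 on the same strand. Ctbp2 was the more abundant gene, with 1667, 1505 and 1702 counts with knockout and 1933, 2002 and 2539 with overexpression (log2 fold change 0.39, adjusted p = 0.0505, edgeR). Whether Ctbp2 counts entered those of Fgfr2, or the reverse, was not tested.

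Fgfr3, a receptor of differentiating epithelium and cartilage, had 120, 236 and 87 counts with knockout and 79, 70 and 176 with overexpression. The groups overlapped widely, with knockout replicate 2 and overexpression replicate 3 as the high libraries. Levels were 4.57 ± 2.86 and 3.08 ± 1.19 CPM (SD, n = 3 each), and the log2 fold change of -0.56 had a 95% interval from -1.64 to 0.52 (adjusted p = 0.397, edgeR). Without knockout replicate 2 the knockout level was 2.95 CPM on average and the groups differed by 0.069 on the log2 scale (adjusted p = 0.924, edgeR). Scaled to the epithelial markers it was -1.70 (adjusted p = 0.00822, edgeR). Fgfr3 (ENSMUSG00000054252; chromosome 5, bases 33721674 to 33737068, plus strand) shares 998 exon bases with G630022F23Rik on the other strand, which had at most 8 counts in a library.

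The receptor make-up was then compared within libraries, which needs no scaling between them. Of the summed length-normalised level of Fgfr1, Fgfr2, Fgfr3 and Fgfr4, Fgfr1 made up 97.3%, 96.1% and 97.5% in the knockout libraries and 97.8%, 98.3% and 95.7% in the overexpression libraries. Fgfr2 made up 1.80%, 1.98% and 1.77% with knockout and 1.17%, 0.946% and 2.62% with overexpression. The log2 ratio of Fgfr2 plus Fgfr3 counts to Fgfr1 counts was -5.16 ± 0.28 with knockout and -5.42 ± 0.74 with overexpression (SD, n = 3 each). The difference of -0.26 was smaller than the spread within the overexpression group (exact permutation test, two-sided, p = 0.6, where 3 against 3 cannot go below 0.1). Without overexpression replicate 3 the difference was -0.67 (exact permutation test, p = 0.1, the smallest possible), and without overexpression replicate 2 it was 0.046 (exact permutation test, p = 1).

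**Figure D3:**
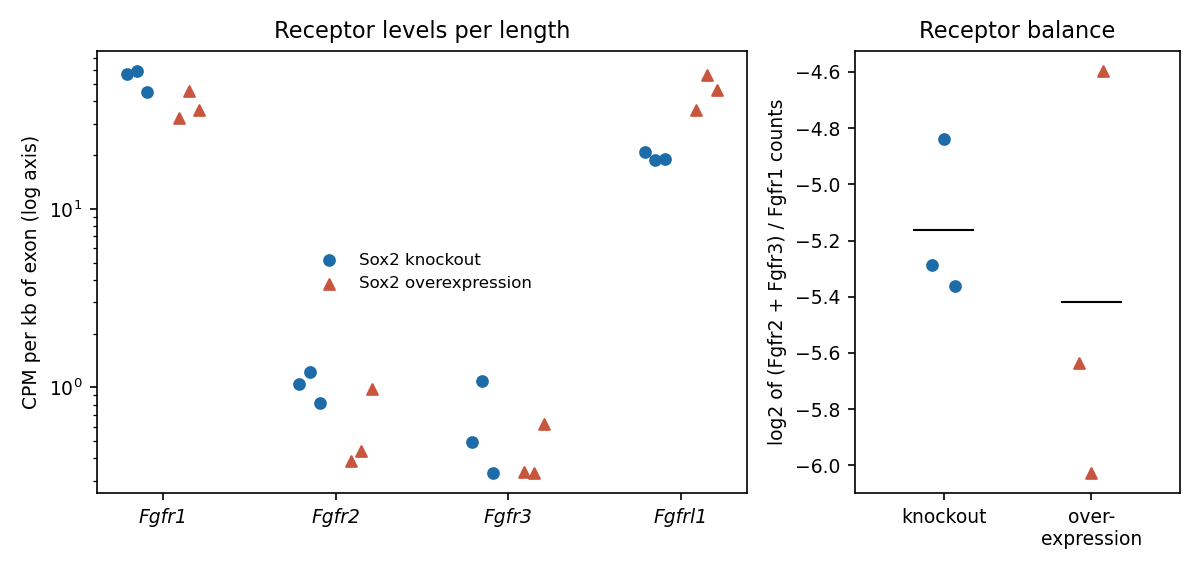
Left, level of Fgfr1, Fgfr2, Fgfr3 and the receptor-like Fgfrl1 in CPM per kb of exon (log axis) in each knockout (circles) and overexpression (triangles) library. Right, the log2 ratio of Fgfr2 plus Fgfr3 counts to Fgfr1 counts in each library, with black bars for group means of -5.16 and -5.42; overexpression replicate 3 is above every knockout library and the other two below.

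The rest of the FGF family was scarce. Of 19 other family genes, 9 passed the count filter, and 1 was higher and 4 lower with overexpression past the threshold (edgeR). Those shares, 11.1% higher and 44.4% lower, stand beside 13.6% and 18.0% of all tested genes. Fgf9, Fgf14 and Fgf23 passed the count filter only through the knockout libraries, so they could only be called lower. Fgf17, which was not called, passed it only through the overexpression libraries. The share of lower genes is therefore partly set by the filter. Fgf11, Fgf13 and Fgf14 belong to the intracellular FGF homologous factors, which do not act as secreted ligands. Fgf11 fell from 6.99 ± 0.242 to 1.27 ± 0.230 CPM (SD, n = 3 each; log2 fold change -2.46, adjusted p = 0.00021, edgeR), the smallest p of this list. Fgf13 had 36, 52 and 40 counts with knockout and 113, 81 and 96 with overexpression (log2 fold change 1.16, adjusted p = 0.032, edgeR). Its call was lost in 5 of the 6 fits that left out 1 library (adjusted p from 0.0333 to 0.0944, edgeR), and under the epithelial scaling the log2 fold change was -0.002. Fgf14, whose exons overlap Gm28932 on the other strand, had 27, 40 and 26 counts with knockout and at most 2 with overexpression, and the hormone-like ligand Fgf23 had 12, 75 and 49 and at most 2. Fgf9 also passed, with 18, 31 and 46 counts against 7, 9 and 18 (log2 fold change -1.51, adjusted p = 0.0486, edgeR), but the call was lost in 5 of the 6 fits that left out 1 library (all except the one without knockout replicate 1; adjusted p from 0.0323 to 0.152, edgeR). It was also lost with the replicate block (0.0501), without the count filter (0.0785) and in DESeq2 (0.0927). The receptor gene Fgfr4 had at most 10 counts in a library and was not tested.

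Heparan sulfate proteoglycans and the enzymes that build or trim heparan sulfate set how FGFs reach their receptors. Of 25 such genes and Klotho co-receptors, 23 were tested, with 4 higher and 8 lower past the threshold (edgeR) and a median log2 fold change of -0.41. These were 17.4% higher and 34.8% lower, beside 13.6% and 18.0% of all tested genes. Gpc2 and Gpc3, both among the lower genes, passed the count filter only through the knockout libraries. Sulf1 and Sulf2, sulfatases that remove the sulfate groups FGF signalling uses, both fell, Sulf1 from 234 ± 41.8 CPM to 23.2 ± 7.55 and Sulf2 from 102 ± 31.4 CPM to 10.05 ± 1.64 (SD, n = 3 each). Their log2 fold changes were -3.33 and -3.35 (adjusted p = 2.56e-05 and 2.86e-05, edgeR). The glypican Gpc3 had 2221, 3800 and 6480 counts with knockout and 9, 18 and 26 with overexpression (log2 fold change -7.88, adjusted p = 7.36e-06, edgeR), a change within the range of the fibroblast markers.

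The genes of that list that rose were enzymes and a syndecan. Hs3st1, a heparan sulfate sulfotransferase, rose from 23.0 ± 4.003 to 59.01 ± 9.71 CPM (SD, n = 3 each; log2 fold change 1.36, adjusted p = 0.000808, edgeR). The syndecan Sdc4 rose from 212 ± 14.8 to 381 ± 42.3 CPM (SD, n = 3 each; log2 fold change 0.84, adjusted p = 0.00337, edgeR). For Hs6st1, another sulfotransferase, the log2 fold change was 0.67 (adjusted p = 0.0252, edgeR), which did not pass without knockout replicate 2 (0.0714) or 3 (0.0925) or overexpression replicate 3 (0.0574). Scaled to the epithelial markers, the log2 fold changes were 0.19 for Hs3st1, -0.34 for Sdc4 and -0.51 for Hs6st1, and 21 of the 23 genes passed as lower. That is 91.3% of the list, beside 76.3% of all tested genes. Exons of Sulf2 overlap Ncoa3 and those of Hs6st1 overlap Gm37335, both on the other strand. The 4 rising genes were 2 without knockout replicate 2, without knockout replicate 3 or without overexpression replicate 3.

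Feedback regulators and targets of FGF and MAP kinase signalling were mostly higher with overexpression. Of 14 genes, all tested, 9 rose and 3 fell past the threshold (edgeR), with a median log2 fold change of 0.80. As shares, 64.3% rose and 21.4% fell, beside 13.6% and 18.0% of all tested genes. The count of rising genes was 5 without overexpression replicate 3. Etv5 rose from 16.6 ± 2.47 to 48.8 ± 9.72 CPM (SD, n = 3 each; log2 fold change 1.55, adjusted p = 0.000523, edgeR). Etv1, a related transcription factor, rose from 15.4 ± 4.48 to 57.3 ± 12.7 CPM (SD, n = 3 each; log2 fold change 1.90, adjusted p = 0.000736, edgeR). Spry1, an inhibitor of receptor tyrosine kinase signalling, rose from 106 ± 26.9 to 281 ± 19.5 CPM (SD, n = 3 each; log2 fold change 1.40, adjusted p = 0.000922, edgeR). The exons of Spry1 overlap Gm42922 on the other strand.

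The calls of these targets depended on the reference. Scaled to the epithelial markers, 1 of the 14 passed as higher, Etv1 at 0.78 on the log2 scale (adjusted p = 0.0175, edgeR), and 6 passed as lower. Etv5 (0.37) and Spry1 (0.25) did not pass there. That scaling lowered most genes: the median was -0.37 for this list and -1.19 for all tested genes. As lower passed 42.9% of the list and 76.3% of all tested genes. The falling genes were Flrt2 and Flrt1, membrane proteins that bind FGF receptors, and Spred3, whose exons overlap Ggn on the other strand. Flrt3, of the same family, went the other way under TMM scaling (log2 fold change 1.165, adjusted p = 0.0423, edgeR). Flrt2 went from 60.3 ± 24.2 CPM down to 16.9 ± 5.95 and Spred3 from 14.5 ± 3.09 CPM down to 5.24 ± 1.76 (SD, n = 3 each), with log2 fold changes of -1.83 and -1.47 (adjusted p = 0.00533 and 0.00557, edgeR). For Flrt1 the log2 fold change was -2.57 (adjusted p = 0.0191, edgeR) from 26 to 51 counts with knockout and 1 to 13 with overexpression. It did not pass without knockout replicate 1 (0.0573) or overexpression replicate 2 (0.0781), and without overexpression replicate 3 the overexpression mean went from 0.176 to 0.0998 CPM. Flrt1 passed the count filter only through the knockout libraries, so it could only be called lower.

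The adaptors that couple FGF receptors to the Ras pathway, among them Frs2, Grb2 and Ptpn11, showed no call in either direction. None of the 10 passed in edgeR, where 1 had an unadjusted p under 0.05, and 0 passed in DESeq2. Their log2 fold changes lay between -0.43 and 0.29, with a median of -0.05, close to that of all tested genes. Under the epithelial scaling all 10 were lower past the threshold, with a median of -1.21 beside -1.19 for all genes.

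Among 4 splicing regulators known to act on Fgfr2, the epithelial factors Esrp1 and Esrp2 were higher with overexpression. Esrp1 rose from 87.2 ± 12.3 to 173 ± 10.4 CPM and Esrp2 from 38.5 ± 8.67 to 89.3 ± 7.37 CPM (SD, n = 3 each). Their log2 fold changes were 0.99 and 1.21 (adjusted p = 0.00144 and 0.00147, edgeR), and the groups did not overlap for either. On the other strand, exons of Esrp1 overlap Gm26663 and those of Esrp2 overlap Nfatc3. Scaled to the epithelial markers the log2 fold changes were -0.18 and 0.034, so both moved with those markers. Rbfox2 and Ptbp1 had log2 fold changes of -0.25 and 0.46 that did not pass, and of -1.42 and -0.74 under the epithelial scaling, which did.

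**Figure D4:**
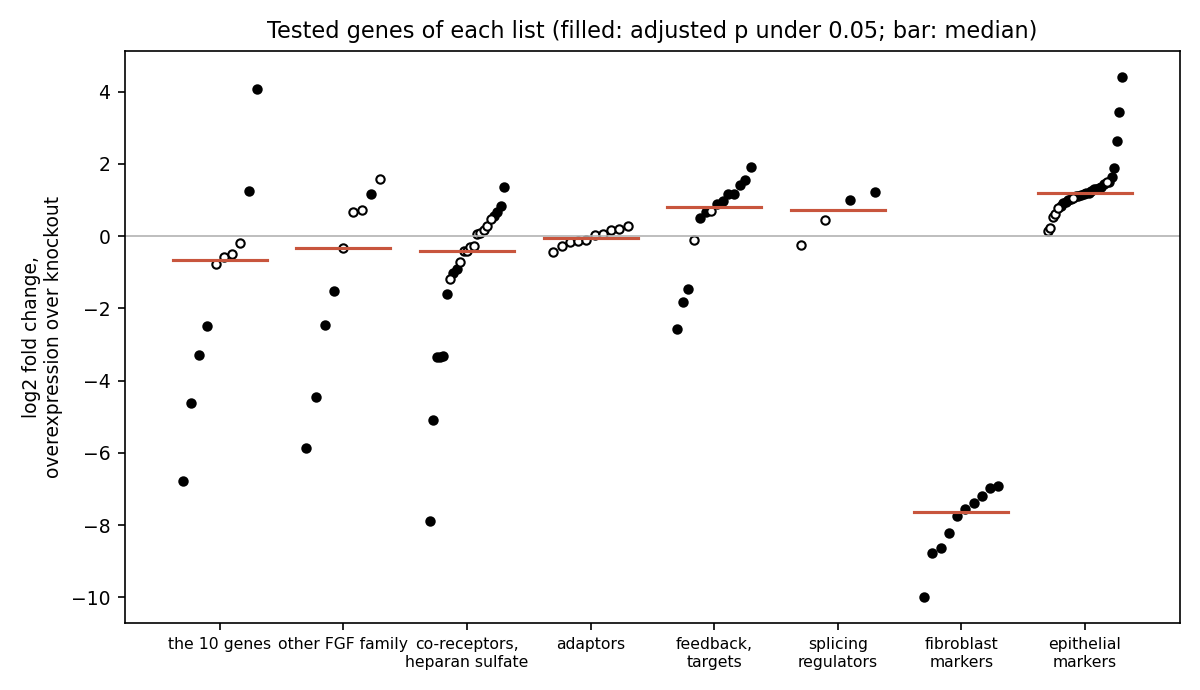
The log2 fold change, overexpression over knockout, of every tested gene in each list, sorted within a list (filled: adjusted p under 0.05 in edgeR; open: not past it; horizontal bar: list median). Feedback and target genes have a median of 0.80, adaptors sit near 0, and Gpc3 (-7.88) lies within the range of the fibroblast markers, -9.98 to -6.91, with Fgf7 (-6.78) just outside it.

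The genes most like each member were sought among 8448 genes with an average log2 CPM of at least 4 (Gm and Rik names left out), by the root-mean-square difference in centred log2 CPM over the 6 libraries, where the difference between the groups dominates the measure. Fgfr1 was closest to Polb (0.0713) and Kdelr2 (0.0718), and Fgfrl1 to the desmosomal plakophilin Pkp3 (0.0842) and to Klhl21 (0.0863). Fgf7 was the furthest from its closest genes, the collagen receptor Ddr2 (0.555) and Lrrc32 (0.564). Its overexpression values rest on 16, 1 and 6 counts, so counting error enters that distance. Fgf10 was closest to Selenop (0.224) and Lrrn4cl (0.355), Fgf2 to Chl1 (0.171) and Vegfd (0.202), and Fgf18 to Lrp1 (0.184) and the laminin gene Lamc1 (0.223). Fgfbp1 was closest to Cyp2f2 (0.453) and Sox21 (0.482), Fgfr2 to Adarb1 (0.235) and Chst11 (0.236), Fgfr3 to Nptx1 (0.261) and Pxdc1 (0.303), and Fgf1 to Nr2f2 (0.166) and Prom2 (0.168).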

How the data were processed

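RNA from 6 libraries was sequenced by the submitters with a kit for low input. The authors deposited 1 table of gene counts that were not normalized, and each column was matched to its sample by the description in the labels. Per the submitters' processing notes, mm10 and kallisto 0.44.0 were used, with no role given, so whether the counts are direct or rounded estimates is not known, and reads over overlapping genes could be split. The 96 rows that name no mouse gene held at most 2.23e-05% of a library and were left out. GENCODE M21 (GRCm38) gave symbols for 55144 gene IDs and gave positions and exon lengths.

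Genes were filtered with filterByExpr (minimum count 10, total 15), normalized with TMM and tested with the edgeR 4.0.16 quasi-likelihood test in R 4.3.3, group as the only term, with Benjamini-Hochberg adjustment over 18504 genes. The standard error is the log2 fold change divided by the root of F. The log2 CPM used to find similar genes had a prior count of 2. On simulated counts the fit called 65 of 86 genes changed 4-fold and 32 of 108 changed 2-fold, with 3 false calls. That simulation changed far fewer genes than the 5848 called here, and only in 2-fold and 4-fold steps. Its rates therefore do not measure the error or sensitivity of these calls. Alternatives were RLE and upper-quartile factors, scaling to the epithelial markers, no filter, a replicate block, robust dispersion, DESeq2 1.42.0 and leaving out each library. From each pathway list the text names up to 3 genes in each direction with the smallest p past the threshold, and other names were chosen after their values were seen. The members, lists and alternatives were chosen with earlier results of these data known. The labels give no sequencing batch or date. Promoter sequences are from RefSeq (GRCm38.p6) and were used for 8 of the 10 genes. Entries on chromosome 18, where Fgf1 lies, were left out, and Fgfr1 had no entry.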

Additional observations from a re-analysis of the deposited data

Results flagged for a closer look

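The count table also holds rows for 4 reporter or construct sequences that no comparison uses. The mCherry row had 8 counts in knockout replicate 3, above the 3 counts that a count of 0 allows, and 1 count in knockout replicate 2. The other 4 libraries had 0 counts of it, and the rows for rtTA3, OVA and tdTomato had 0 counts throughout.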

How the results depend on the processing

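Scaling to the epithelial markers changed most. It called 14452 genes in place of 5848, 341 of them higher (2.36% of calls, against 43.1%) and 14111 lower, and among the 10 FGF genes 1 higher and 8 lower. It also turned the log2 fold change of Fgf13 to -0.002, Sdc4 to -0.34, Hs6st1 to -0.51, Esrp1 to -0.18, Spry2 to -0.20, Spred2 to -0.26, Ptbp1 to -0.74, Nudt6 to -0.11 and Ctbp2 to -0.79. Every alternative other than that scaling gave 2 FGF genes as higher and 4 or 5 as lower. With 1 library left out, the count of higher genes over the whole table ranged from 1446 (without knockout replicate 2; 1610 without knockout replicate 3) to 2599, the log2 fold change of Fgf1 from -0.36 to 0.084, that of Fgfr3 from -0.91 to 0.069, and the difference in receptor balance from -0.67 to 0.046. Of 507 gene and alternative combinations over 39 genes, 456 kept direction and side of the threshold. Another 30 kept direction and lost the call, and 10 kept direction and gained one. The other 11 changed sign, and some of these also lost or gained a call. The labels do not say whether replicate numbers pair the samples. The correlation of deviations from group means for same-numbered libraries was 0.0508, 0.0223 and -0.0399, beside -0.0672 to 0.0503 for the other combinations. With 3 libraries a group such deviations constrain each other, so these values cannot decide whether samples were paired. With the replicate block 5593 genes passed, the same 2 and 4 FGF gene counts resulted, and the receptor balance differed by -0.26 (exact sign-flip test, p = 0.75, smallest possible 0.25). With Fgfr2 alone over Fgfr1 the difference was -0.38 (exact permutation test, p = 0.4). For each change above the cause was not tested. Depth limits Fgf7, Fgf10, Fgf14 and Fgf23, whose overexpression levels rest on at most 16 counts a library.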

Other observations

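The following members of the pathway lists were chosen after their values were seen. Spry2 rose from 73.5 ± 14.7 to 145 ± 15.8 CPM and Spred2 from 66.7 ± 6.76 to 125 ± 4.28 CPM (SD, n = 3 each), with log2 fold changes of 0.98 and 0.90 (adjusted p = 0.00349 and 0.00142, edgeR). Neither passed when libraries were scaled to the epithelial markers, where the values were -0.20 and -0.26. Dusp6, the phosphatase of ERK, had 14910, 17139 and 8747 counts with knockout and 23328, 29557 and 41881 with overexpression (log2 fold change 1.16, adjusted p = 0.0217, edgeR). Its call was lost without overexpression replicate 2 (0.0645) or 3 (0.0614), and under that scaling Dusp6 stood at 0.009 on the log2 scale (adjusted p = 0.974, edgeR). Perlecan (Hspg2), a basement membrane proteoglycan that stores FGFs, fell from 1115 ± 121 to 371 ± 66.8 CPM (SD, n = 3 each; log2 fold change -1.59, adjusted p = 0.000377, edgeR). The syndecan Sdc3 fell from 46.5 ± 3.71 to 4.67 ± 1.68 CPM (SD, n = 3 each).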
